A study of Mus musculus with 6 samples.

Results

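The genes of smooth muscle actin and myosin regulation, 10 in number (Acta2, Actg2, Tagln, Cnn1, Cnn2, Cnn3, Myl9, Mylk, Myh11 and Lmod1), were followed in dermal fibroblasts with and without LAP2alpha. They were chosen by symbol as genes in use as myofibroblast markers, and all 10 were found among the 28293 genes of the count files. The libraries were made from polyadenylated RNA of a mouse dermal fibroblast cell line. Of these, 3 were wild type (WT) and 3 were labelled Lap2alpha KO (KO), and all 6 came from cells grown in DMEM with 10% fetal calf serum. LAP2alpha is a nuclear protein made from Tmpo and a partner of A-type lamins inside the nucleus. The labels do not say how the knockout was made, whether KO is a single clone, or whether replicates were separate cultures, so a p-value here rests on library-to-library spread alone, which may be technical.

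Smooth muscle cells and myofibroblasts contract when myosin II pulls on actin filaments. Calmodulin and myosin light chain kinase start the process by phosphorylating the regulatory light chain, myosin phosphatase ends it, and calponins and transgelins bind the filament. Most genes of this group are known targets of serum response factor (SRF), which binds CArG boxes and works with myocardin or the myocardin-related factors. Dermal fibroblasts express some of them at rest, and rising Acta2 is the usual sign of a myofibroblast.

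The libraries held 22159339 to 27281473 counts each, and levels are given as CPM, counts scaled to a library total of 1000000. Tmpo fell from 251.8 ± 2.65 CPM in WT to 129.4 ± 6.81 CPM in KO (mean ± SD, n = 3 libraries; edgeR log2 fold change −1.04 with SE 0.0549 and adjusted p = 4.9e-08), and its count sums all LAP2 isoforms. Of 10 fibroblast markers, 9 were at 10 CPM or more in every library and 8 were called higher in KO, among them the collagen genes Col1a2 (1788 ± 80.05 to 10950 ± 183.7 CPM) and Col3a1 (136.4 ± 11.5 to 1852 ± 57.8 CPM), the receptor gene Pdgfra (79.1 ± 5.92 to 552.7 ± 17.1 CPM) and the decorin gene Dcn (26.8 ± 2.56 to 309.0 ± 37.5 CPM). Lum, among those called higher, had 5 counts in WT and 182 in KO. It passed the filter on low counts through its KO counts, which favours a call as higher. The markers did not all rise. Thy1 was called lower (379.0 ± 16.5 to 237.5 ± 11.45 CPM, edgeR log2 fold change −0.75, adjusted p = 6.9e-07). Fn1 was not called (−0.12, adjusted p = 0.16). Lum, Thy1 and Fn1 fall outside the naming rule and were picked knowing their levels. The summed level of the 10 markers was 7220 to 7880 CPM in WT and 23900 to 25400 CPM in KO. The part of this shift in the results below was not tested. Mitochondrially encoded genes took 1.99 to 2.45% of the counts in WT and 3.76 to 4.46% in KO, and their part was not tested either. Of 15081 genes tested in edgeR, 75.1% differed at an adjusted p under 0.05, the threshold at which a gene is called here, 37.7% being higher and 37.5% lower in KO.

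Of the 10 genes, 7 passed the filter on low counts, and of these 5 were called higher in KO (Acta2, Tagln, Cnn3, Myl9 and Mylk), 1 was called lower (Cnn2) and 1 was not called (Cnn1). The groups did not overlap for the 6 called genes, against 76.8% of all tested genes, so neither the number called nor the number without overlap sets these genes apart in so widely changed a transcriptome. The median log2 fold change of the 7 genes that passed the filter was 1.02, and the median over all tested genes was 0.01. Of the 7, Acta2, Myl9 and Mylk also passed an edgeR test against a 2-fold change, which 11.9% of all tested genes passed as higher (18.9% in either direction). Actg2, Myh11 and Lmod1 had too few counts for the test. In bulk RNA a higher count can come from more cells of a type or more RNA per cell, and these cannot be told apart here.

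**Figure D1:**
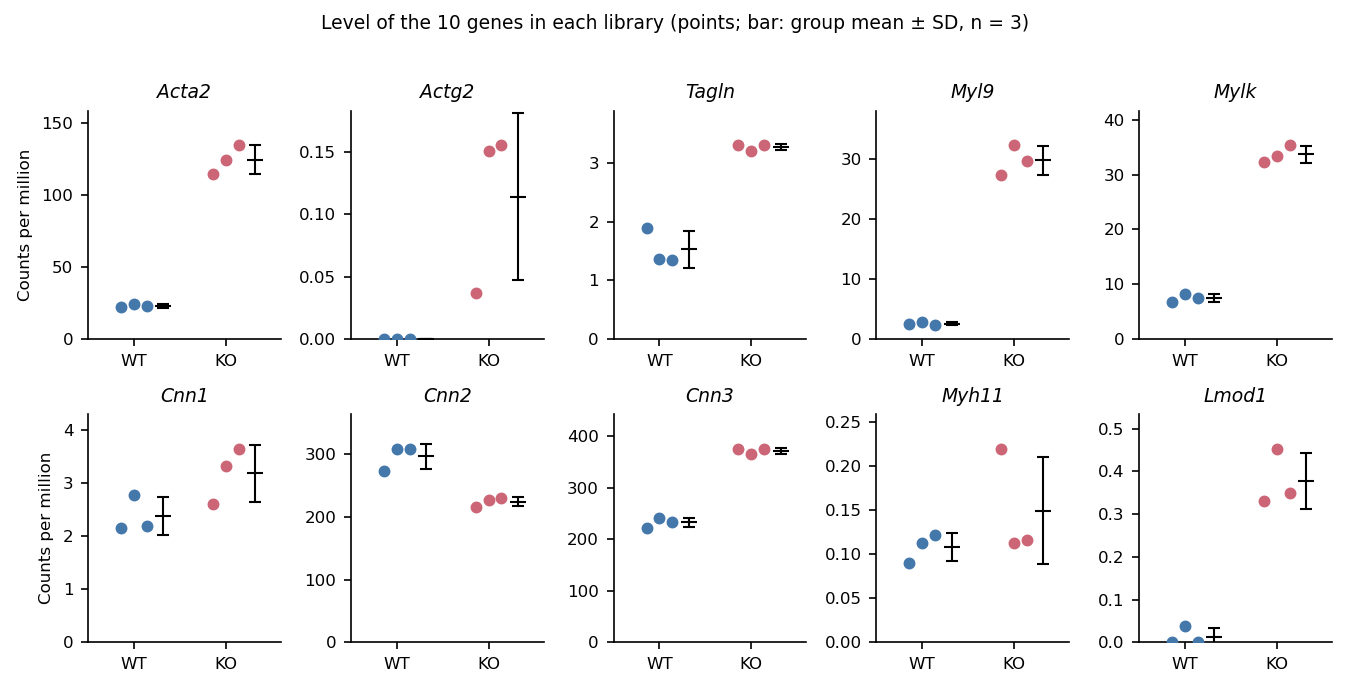
CPM of each gene in the 3 WT (blue) and 3 KO (red) libraries, each panel on its own linear axis from 0, with the group mean ± SD in black (n = 3). The KO points lie above the WT points for Acta2, Tagln, Myl9, Mylk and Cnn3 and below them for Cnn2. For Cnn1 and Myh11 the groups overlap, with 2 KO points above all WT points for Cnn1 and 1 for Myh11.

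RefSeq promoter windows of GRCm38.p6 (250 bases before to 50 after the annotated start) were given for 7 of the 10 genes; Actg2, Tagln and Myh11 had none. The stretches below are shown because they carry a CArG box, the SRF binding motif, in genes that moved in opposite directions (Myl9 and Acta2 up, Cnn2 down). Capitals mark a CArG box, allowing up to 1 G or C in its A/T core; this wider form, which includes the strict form, was chosen after the strict search had been seen. Myl9 (chr2:156775214-156775419, plus strand) and Cnn2 (chr10:79988350-79988583, plus strand) are shown up to their first annotated exon, and Acta2 (chr19, minus strand) as a pair of 30-base sites at chr19:34255438-34255467 and chr19:34255388-34255417, each written 5′ to 3′.
Myl9: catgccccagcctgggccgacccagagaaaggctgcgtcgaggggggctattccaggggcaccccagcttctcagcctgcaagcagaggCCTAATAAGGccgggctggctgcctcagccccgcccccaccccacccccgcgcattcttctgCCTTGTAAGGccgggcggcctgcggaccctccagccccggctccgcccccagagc
Cnn2: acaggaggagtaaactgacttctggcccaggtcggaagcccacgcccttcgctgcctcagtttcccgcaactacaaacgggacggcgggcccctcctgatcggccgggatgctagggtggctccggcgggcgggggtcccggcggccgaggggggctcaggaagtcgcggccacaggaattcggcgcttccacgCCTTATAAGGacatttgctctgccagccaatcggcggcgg
Acta2 distal site: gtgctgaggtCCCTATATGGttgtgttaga
Acta2 proximal site: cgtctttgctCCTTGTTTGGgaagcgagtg
A strict CArG box, searched on both strands, was present in 2 of the 7 windows, those of Myl9 (starting 161 bases before the annotated start) and Cnn2 (56 bases before it), and in 1.63% of 32851 promoter windows of the same length. Allowing 1 G or C in the core added Acta2, with matches starting 84 and 34 bases before the start, and a further match in Myl9 at 99 bases; 3 of 7 windows and 9.98% of all windows then matched. The MCAT element, a TEAD factor motif searched as CATTCC on both strands, was present in the windows of Acta2, Mylk and Lmod1 and in 14.7% of all windows. No window of the 7 held TATAAA, found in 13.6% of all windows. These are matches of letters in reference sequence, and binding was not measured. The RefSeq starts used for Acta2 and Mylk lie inside the GENCODE gene spans given below, so the Acta2 sites also lie inside its span.

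Acta2 encodes smooth muscle alpha-actin, the filament protein that defines myofibroblasts in practice (chromosome 19, 34241090 to 34255590, minus strand, GRCm38; its promoter sites are shown above). It stood at 21.9, 24.1 and 22.6 CPM in WT replicates 1 to 3 and at 114.7, 124.6 and 134.5 CPM in KO replicates 1 to 3. Every KO library was far above every WT library, with a 5.15-fold increase (log2 fold change 2.37, SE 0.0747, n = 3 per group, edgeR adjusted p = 1.9e-09). Larger log2 fold changes were found for 5.01% of tested genes.

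Actg2, the enteric smooth muscle gamma-actin (chromosome 6, 83512905 to 83536265, minus strand), had 0 counts in all 3 WT libraries and 1, 4 and 4 counts in KO. With a floor of 3 counts over the WT group the ratio of KO to WT was 2.77, a value that leaves out counting error in KO. Actg2 stood at 0.113 CPM over the KO group. Without the low-count filter it passed the edgeR test (adjusted p = 0.0187), on 9 counts in all. That fit gave far smaller p-values than the filtered fit for genes such as Acta2 (edgeR adjusted p = 1.0e-171 against 1.9e-09). Its p-values are therefore not comparable with the others given here.

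The cytoplasmic actins, which build the filaments of all cells, did not rise. Actg1 fell from 4975 ± 99.6 to 4488 ± 128 CPM (n = 3; edgeR gave a log2 fold change of −0.23 and adjusted p = 0.00241), and Actb changed from 2292 ± 139.5 to 2133 ± 69.3 CPM (−0.18, adjusted p = 0.0198), a call that was lost under upper-quartile scaling (adjusted p = 0.0939) and under library totals alone (0.125). Per kilobase of exon, Acta2 made up 0.356, 0.401 and 0.386% of the 6 actin genes in the WT libraries and 2.12, 2.22 and 2.35% in the KO libraries. The share was 5.85 times as high in KO, without overlap, and the exact two-sided permutation test over 3 against 3 libraries gave p = 0.1, the smallest it can give (adjusted p = 0.125 over 10 shares). The muscle actins together made up 0.386% in WT and 2.24% in KO, and the cytoplasmic actins the rest. Actg1 shares 37.4% of its 50-base words with other annotated genes, mainly pseudogenes, so its count is uncertain, whereas Acta2 shares 0.326%.

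Myl9 encodes the regulatory light chain of smooth muscle and non-muscle myosin, the protein that myosin light chain kinase phosphorylates (chromosome 2, 156775420 to 156781658, plus strand). Its level was 2.48, 2.82 and 2.35 CPM in WT and 27.5, 32.4 and 29.8 CPM in KO. No KO library came near the WT range, and the 11-fold increase was the largest of the 7 tested genes (edgeR log2 fold change 3.46 with SE 0.107, n = 3, adjusted p = 1.6e-09), exceeded by 2.29% of tested genes.

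The paralogs Myl12a and Myl12b encode nearly the same light chain. Myl12a fell from 347.7 ± 6.89 to 210.7 ± 11.1 CPM (log2 fold change −0.80, edgeR adjusted p = 2.4e-07). Myl12b is split over 2 gene identifiers with overlapping sequence, of which ENSMUSG00000117098 fell (−0.57, adjusted p = 0.00106) and ENSMUSG00000034868 was not called (−0.16, adjusted p = 0.312); the first shares 95.6% of its 50-base words with other genes, so the split between them is uncertain. Myl9 made up 1.46, 1.56 and 1.35% of the regulatory light chain counts per kilobase in WT and 19.3, 22.8 and 21.0% in KO, 14.5 times the WT share (exact permutation p = 0.1). The difference of 19.6 percentage points was 13.6 points with longest transcript lengths and 9.64 points with no length correction. The family as a whole went down, from 151 ± 4.99 to 122 ± 0.291 CPM per kilobase.

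Mylk encodes myosin light chain kinase (chromosome 16, 34745210 to 35002420, plus strand); its long and short isoforms and telokin share this locus and were not told apart. It stood at 6.77, 8.21 and 7.42 CPM in WT and at 32.3, 33.5 and 35.4 CPM in KO, a 4.26-fold increase with no overlap (edgeR log2 fold change 2.09 with SE 0.0865, n = 3, adjusted p = 9.4e-09). The kinase genes Mylk2 and Mylk3, known from skeletal and heart muscle and chosen after their values were seen, were low in both groups, at 0.783 ± 0.152 and 0.284 ± 0.0492 CPM in WT and 0.355 ± 0.168 and 1.07 ± 0.124 CPM in KO. Mylk held 66.5 ± 4.85% of the kinase family per kilobase in WT and 88.9 ± 1.05% in KO (exact permutation p = 0.1), a difference of 22.4 percentage points that was 17.8 points with longest transcript lengths and 8.57 points with no length correction. The family total went from 0.996 ± 0.062 to 3.37 ± 0.191 CPM per kilobase.

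**Figure D2:**
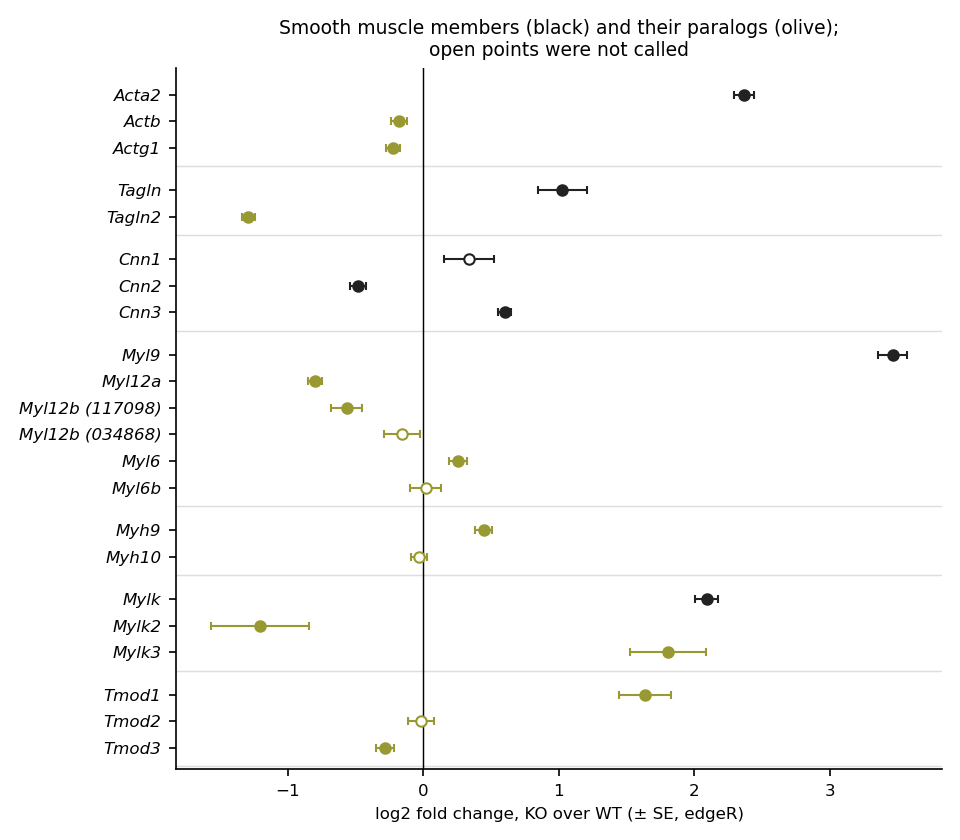
Log2 fold change of KO over WT (x axis, ± SE from edgeR) of the tested smooth muscle genes (black) and their tested paralogs (olive), by family; filled points were called and open points were not. Acta2, Tagln and Myl9 lie to the right of 0 while Actb, Actg1, Tagln2, Myl12a and both Myl12b identifiers lie to the left, 1 of the Myl12b identifiers as an open point; Actb was not called under 2 of the 3 other scalings.

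Of the 3 calponins, which bind actin filaments and restrain myosin, Cnn2 fell, Cnn3 rose and Cnn1 was not called. Cnn1, the calponin of differentiated smooth muscle (chromosome 9, 22099216 to 22109630, plus strand), was low, at 2.17, 2.79 and 2.19 CPM in WT and 2.60, 3.32 and 3.65 CPM in KO. The groups overlapped and the difference was not called (edgeR log2 fold change 0.34 with SE 0.182, n = 3, adjusted p = 0.117), though it passed when KO replicate 1 was left out (0.47, adjusted p = 0.0389).

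Cnn2, the calponin of many non-muscle cells (chromosome 10, 79988584 to 79996062, plus strand), was at 273.3, 308.5 and 307.9 CPM in WT and 215.7, 227.2 and 230.3 CPM in KO. All KO libraries were below all WT libraries, a 1.39-fold decrease (edgeR log2 fold change −0.48 with SE 0.0594, n = 3, adjusted p = 3.1e-05). Its promoter holds the strict CArG box printed above, as does that of Myl9, which rose.

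Cnn3, acidic calponin (chromosome 3, 121426497 to 121458207, plus strand), was at 222.3, 241.2 and 234.6 CPM in WT and 375.5, 364.9 and 374.8 CPM in KO, a 1.51-fold increase without overlap (edgeR log2 fold change 0.60 with SE 0.0503, n = 3, adjusted p = 1.5e-06). The order of the abundant calponins was exchanged. Per kilobase, Cnn2 fell from 60.9 ± 0.783% to 42.5 ± 1.01% of calponin counts and Cnn3 went from 38.7 ± 0.772% to 57.0 ± 1.09% (exact permutation p = 0.1 for each), while the family total moved only from 198 ± 11.3 to 215 ± 3.17 CPM per kilobase. Cnn3 shares 10.3% of its 50-base words with annotated pseudogenes.

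**Figure D3:**
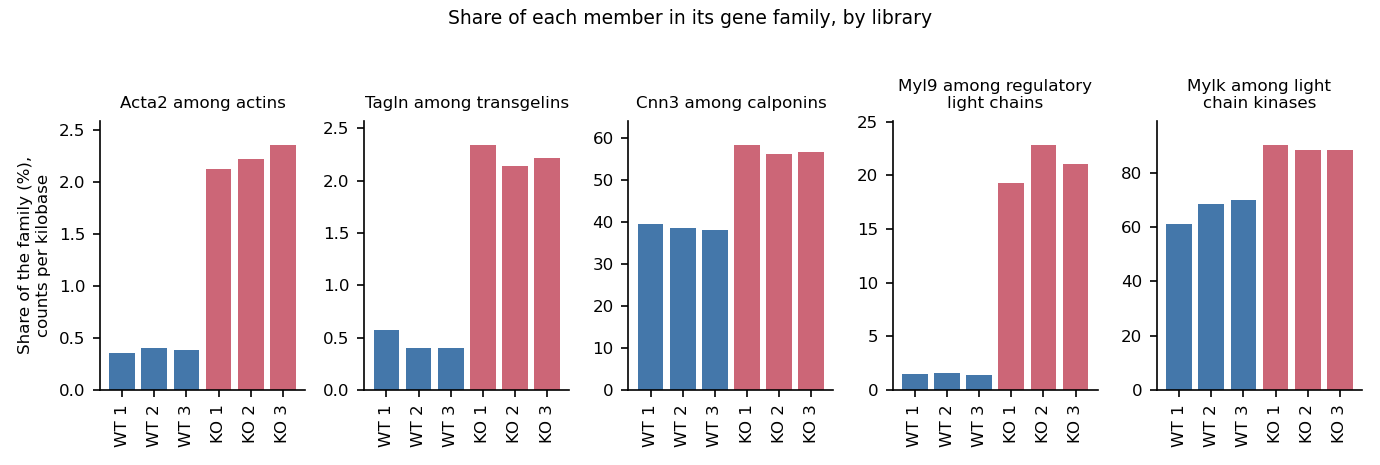
Share of a gene in its family in each library, in percent of the family's counts per kilobase of exon (y axes from 0, each panel on its own scale), for WT (blue) and KO (red). All 3 KO libraries exceed all 3 WT libraries in each of the 5 panels, from a change of 0.381% to 2.23% for Acta2 to a change of 66.5% to 88.9% for Mylk.

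Tagln encodes transgelin (SM22), an actin-bundling protein and early smooth muscle marker (chromosome 9, 45929619 to 45936058, minus strand). It had 42, 36 and 33 counts in WT (1.90, 1.36 and 1.34 CPM) and 90, 85 and 85 counts in KO (3.30, 3.20 and 3.30 CPM). The groups did not overlap and the level was 2.03-fold higher in KO (edgeR log2 fold change 1.03 with SE 0.179, n = 3, adjusted p = 3.9e-04). It did not pass the test against a 2-fold change. Of its exonic bases, 67.9% lie opposite exons of Pcsk7 and Gm48529, and the strand setting of the counting was not found in the labels or headers, so the counts of these genes could not be separated by strand. Protein-coding genes with 50 to 90% of their exonic bases opposite another gene had a median of 1.69 CPM (121 genes), against 11.2 CPM for those with none (11718 genes). Pcsk7 itself fell slightly, from 29.7 ± 1.56 to 25.5 ± 2.30 CPM (log2 fold change −0.30, edgeR adjusted p = 0.00601), the opposite direction to Tagln; the part of the overlap in the level of Tagln was not tested.

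The paralog Tagln2, the common transgelin of non-muscle cells, fell from 348.2 ± 4.33 to 150 ± 4.93 CPM (n = 3; edgeR gave a log2 fold change of −1.29 with SE 0.049 and adjusted p = 5.3e-09). Tagln therefore made up 2.23 ± 0.101% of transgelin counts per kilobase in KO and 0.459 ± 0.1% in WT (exact permutation p = 0.1), within a family whose total in KO was 0.439 times that in WT.

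Myh11, the smooth muscle myosin heavy chain (chromosome 16, 14194535 to 14291372, minus strand), is the marker most restricted to mature smooth muscle. It had 2, 3 and 3 counts in WT and 6, 3 and 3 counts in KO, a ratio of 1.38 with an exact 95% counting interval (Clopper-Pearson) of 0.520 to 3.90. A difference was not detectable at this depth. Among the non-muscle heavy chains, Myh9 rose from 921.2 ± 40.0 to 1323 ± 99.5 CPM (n = 3; edgeR gave a log2 fold change of 0.45 and adjusted p = 1.0e-04), and Myh10 was not called (280.9 ± 14.01 and 289.5 ± 14.6 CPM). Myl6, an essential light chain of these myosins, rose from 374.7 ± 11.1 to 472.7 ± 39.2 CPM (0.26, adjusted p = 0.00491), and its relative Myl6b was not called (5.49 ± 0.357 and 5.87 ± 0.485 CPM).

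Lmod1, leiomodin, nucleates actin filaments in smooth muscle (chromosome 1, 135324807 to 135368065, plus strand). It had 0, 1 and 0 counts in WT and 9, 12 and 9 counts in KO, a ratio of 27.7 with an exact 95% counting interval of 4.6 to 1130. All KO libraries were above all WT libraries. Without the low-count filter the gene passed the edgeR test (log2 fold change 4.28, adjusted p = 1.3e-05), with the same limit on the p-value as for Actg2. It stood at 0.377 CPM over the KO group. Of its relatives, the filament-capping tropomodulins, Tmod1 (chosen after its values were seen) rose from 1.26 ± 0.175 to 4.13 ± 0.7 CPM (edgeR adjusted p = 2.1e-05), Tmod2 was not called (7.47 ± 0.312 and 7.79 ± 0.427 CPM), and Tmod3 fell from 124.0 ± 6.81 to 107.3 ± 7.55 CPM (−0.29, adjusted p = 0.00233). The intervals cover counting error only, and the floor used for Actg2 covers that of the WT counts alone.

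Levels per kilobase of exon place the 10 genes on 1 scale. In WT the order was Cnn2 (121 ± 8.19 CPM per kilobase, n = 3), Cnn3 (76.6 ± 3.16), Acta2 (10.4 ± 0.514), Myl9 (2.20 ± 0.210), Cnn1 (0.870 ± 0.129), Tagln (0.770 ± 0.159) and Mylk (0.663 ± 0.0641), with Myh11, Lmod1 and Actg2 under 0.1. Tagln overlapped with both Cnn1 and Mylk, its neighbours in this order. In KO it was Cnn3 (122 ± 1.94), Cnn2 (91.2 ± 3.12), Acta2 (56.7 ± 4.52), Myl9 (25.7 ± 2.09), Mylk (2.99 ± 0.138), Tagln (1.64 ± 0.0272) and Cnn1 (1.17 ± 0.195), with no overlap between neighbours. Acta2 kept its place behind the abundant calponins while Mylk passed Tagln and Cnn1. The 3 lowest genes stayed under 0.1 CPM per kilobase, at 0.0955 for Lmod1, 0.0734 for Actg2 and 0.0197 for Myh11 in KO.

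Within groups, the libraries differed little for the tested genes, by at most 1.42-fold, for Tagln in WT. KO replicate 3 was highest of its group for 4 of the 7 tested genes and KO replicate 1 lowest for 5. WT replicate 2 was highest of its group for 6 of the 7 and WT replicate 1 lowest for 5. Leaving out any library kept the 6 calls. The summed level of the 10 genes other than Cnn2 and Cnn3 was 35.3 to 39.5 CPM in WT and 180.9 to 207.2 CPM in KO.

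Kinases, phosphatases and regulators of small GTPases that set the phosphorylation of the Myl9 product were called in both directions, as all tested genes were. Of 24 listed genes 23 were tested, 10 were called higher and 9 lower, where 37.7% of all tested genes were higher and 37.5% lower. The median log2 fold change of the 23 was −0.01, beside 0.01 for all tested genes. Prkg1, among those called higher, had 1 count in WT and 62 in KO. It passed the low-count filter through its KO counts, which favours a call as higher. Among targeting subunits of myosin phosphatase, Ppp1r12b rose from 24.4 ± 1.40 to 72.0 ± 1.12 CPM (n = 3; 1.49, SE 0.0579, edgeR adjusted p = 6.3e-09), Ppp1r12a rose (0.77) and Ppp1r12c fell (−0.36, adjusted p = 5.2e-04). Ppp1r14b, which encodes an inhibitor of this phosphatase, fell from 260.4 ± 7.45 to 83.5 ± 1.12 CPM (−1.72, adjusted p = 1.2e-09). Its smooth muscle relative Ppp1r14a (CPI-17) had 2 counts in all, both in KO replicate 1. The GTPase exchange factor gene Arhgef12 (0.82) and the GTPase-activating protein gene Arhgap42 (0.93) rose, while Rhoa fell from 608.8 ± 8.04 to 430.4 ± 13.02 CPM (−0.58, adjusted p = 1.4e-06). Of the kinase genes that act downstream of Rhoa, Rock1 was called higher (0.29) and Rock2 was not called (−0.13). Calm2, a calmodulin gene, fell (−0.56), and Calm3 was not called (−0.01, and of the opposite sign under 2 other scalings). Prkg1, Ppp1r12a, Ppp1r12c, Ppp1r14a, Rhoa, Rock1, Rock2, Calm2 and Calm3 were chosen after their values were seen.

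**Figure D4:**
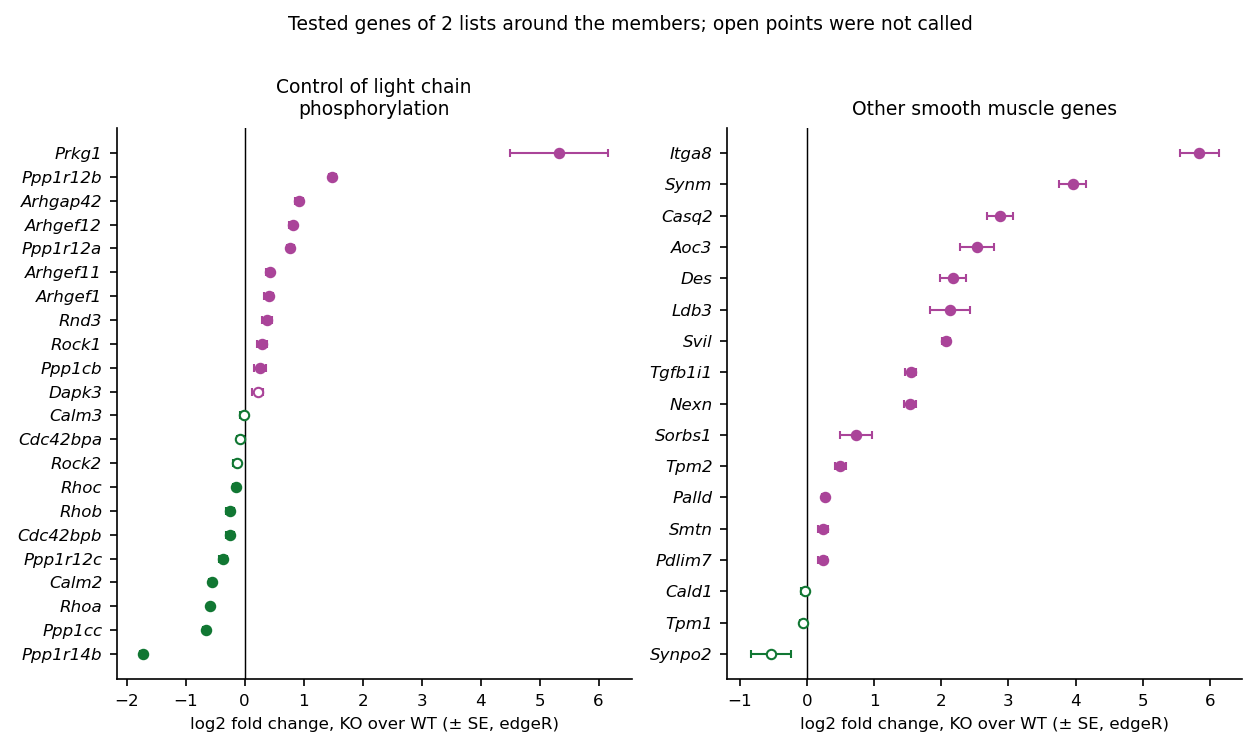
Log2 fold change of KO over WT (x axes, ± SE from edgeR) of the tested genes that control light chain phosphorylation (left, 1 gene not drawn) and each tested gene of the other smooth muscle list (right); filled points were called, open points were not, purple is above 0 and green below. The left list is spread over both sides of 0, with Ppp1r14b lowest at −1.72, and the right list lies mainly above 0, with Itga8 highest at 5.84; the sign of Cald1, Tpm1, Calm3 and Cdc42bpa depends on the scaling.

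Of SRF, its cofactors and partners, all 12 listed genes with a row were tested; 6 were called higher and 4 lower, beside 75.1% of all tested genes called. Their log2 fold changes had a median of 0.18 (0.01 over all tested genes). The LIM protein genes Csrp1 (81.1 ± 3.54 to 124.9 ± 6.04 CPM), Csrp2 (19.7 ± 1.21 to 40.5 ± 1.34 CPM) and Fhl2 (44.1 ± 2.63 to 74.8 ± 1.78 CPM) rose (n = 3; edgeR log2 fold changes 0.55, 0.96 and 0.68). Fhl1, another LIM protein gene, fell from 0.681 ± 0.0778 to 0.25 ± 0.101 CPM (−1.50, edgeR adjusted p = 0.00255). Fhl1 passed the low-count filter through its WT counts, which favours a call as lower, so the count of this list carries that limit. Klf4, a known repressor of smooth muscle genes, fell from 75.5 ± 1.66 to 44.4 ± 0.606 CPM (−0.84, SE 0.049, edgeR adjusted p = 9.5e-08). Srf itself fell slightly, from 37.5 ± 2.48 to 31.4 ± 3.07 CPM (−0.33, adjusted p = 0.00371), and its cofactor genes Mrtfa (0.52) and Mrtfb (0.25) rose. Myocd, the cofactor of committed smooth muscle, had 26 counts in WT and 32 in KO and was not called (0.11, adjusted p = 0.805). Fhl1, Srf, Mrtfa, Mrtfb and Myocd were chosen after their values were seen.

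Other smooth muscle genes were mostly higher in KO. Of 24 listed genes 17 were tested, 14 of which were called higher, 0 lower and 3 not called. DESeq2 and limma-voom each called 14 higher and 0 lower, and at an unadjusted p under 0.05 edgeR gave the same counts. The median log2 fold change was 1.53, against 0.01 for all tested genes, of which 37.7% were called higher. Of the genes called higher, Itga8, Synm, Aoc3 and Ldb3 had only 5, 25, 24 and 28 counts in the WT group. They passed the low-count filter through their KO counts, which favours a call as higher, so the count and the median of this list carry that limit. Svil, supervillin, a myosin- and actin-binding membrane protein, rose from 38.2 ± 2.58 to 169.6 ± 3.32 CPM (n = 3; 2.07, SE 0.0595, edgeR adjusted p = 1.0e-09). Synm, an intermediate filament protein of muscle, rose from 0.346 ± 0.104 to 5.65 ± 0.204 CPM, Tgfb1i1 (Hic-5), a focal adhesion protein, from 10.8 ± 0.873 to 33.3 ± 1.61 CPM, and Nexn, an actin-binding Z-disc protein, from 6.56 ± 0.682 to 20.0 ± 0.695 CPM. Itga8, an integrin subunit of contractile cells, had 5 counts in WT and 351 in KO, and Des, desmin, rose from 0.607 ± 0.11 to 2.93 ± 0.0624 CPM. Tpm1 (tropomyosin, 1034 ± 41.1 and 1047 ± 22.2 CPM) and Cald1 (caldesmon, 755.7 ± 16.6 and 778.3 ± 38.65 CPM) were not called, and their sign changed with the scaling, and Synpo2 was not called (−0.54). Itga8, Aoc3, Ldb3, Des, Tpm1, Cald1 and Synpo2 were chosen after their values were seen.

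Markers of other cell types differed between the groups in part, and their part in the results was not tested. Of 10 vascular smooth muscle and pericyte markers 8 had a row in the files and 5 were tested; 3 were called higher, 1 lower and 1 was not called, beside 75.1% of all tested genes called. Their summed level was 25.8 to 29.7 CPM in WT and 46.8 to 50.4 CPM in KO. Notch3, a receptor of mural cells, rose from 7.24 ± 1.17 to 41.1 ± 2.18 CPM (n = 3), whereas Mcam (CD146) fell from 19.8 ± 1.23 to 1.53 ± 0.160 CPM. Rgs5, among those called higher, had 1 count in WT and 138 in KO. It passed the low-count filter through its KO counts, which favours a call as higher, so the count of this list carries that limit. Kcnj8 and Pln each had 1 count in all libraries together; Rgs5, Kcnj8 and Pln were chosen after their values were seen. Abcc9 and Higd1b had no row. Of 12 skeletal and cardiac muscle markers 6 had a row, with none for Myod1 and Myog, and of the 6 only Tnnt3, a troponin gene, exceeded 1 CPM in every KO library (9.48 ± 0.135 CPM, with 0.924 ± 0.122 CPM in WT). Summed keratinocyte and myoepithelial markers reached at most 8.53 CPM, endothelial markers at most 1.47 CPM and immune markers at most 4.31 CPM in any library. Csf1r, the colony-stimulating factor receptor, chosen after its values were seen, rose from 0.216 ± 0.0975 to 2.40 ± 0.482 CPM (log2 fold change 3.35, edgeR adjusted p = 4.1e-06). Csf1r had only 16 counts in the WT group and passed the low-count filter through its KO counts, which favours a call as higher. Cdh5, an endothelial cadherin gene, fell from 0.92 ± 0.151 to 0.176 ± 0.0779 CPM. Cdh5 was the only endothelial marker tested and passed the low-count filter through its WT counts, which favours a call as lower. The epithelial cadherin gene Cdh1 fell from 2.01 ± 0.256 to 1.08 ± 0.165 CPM, and Krt10, a keratin gene, fell from 5.71 ± 1.02 to 4.14 ± 0.816 CPM with overlapping groups. The choice of Cdh5 and Cdh1 was made with their values known.

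The nearest tested genes on either side of the 6 called genes were also read. Of these 12 genes, 3 were called in the same direction as the gene they adjoin (1 of them, Tmem259 beside Cnn2, not under 2 other scalings), 5 in the other and 4 were not called, so that 8 of 12 were called where 75.1% of all tested genes were. Stambpl1, a deubiquitinase gene that lies 0.757 kb from Acta2 on the opposite strand, fell from 42.8 to 13.2 CPM (log2 fold change −1.77, edgeR adjusted p = 5.7e-09), while Fas, the death receptor gene 35.1 kb away on the other side, rose (0.81). Abca7, 0.432 kb from Cnn2, rose from 6.46 to 14.7 CPM (1.11), against the decrease of Cnn2. On either side of Mylk, Ccdc14 (−0.78) and Hacd2 (−0.37) fell. Dlgap4 beside Myl9 rose (0.21), and Gm14230 beside Myl9 and Gm42928 and Gm42929, which overlap Cnn3, were not called. Beside the genes that were not called or not tested, Dguok (0.24) and Stambp (1.06) next to Actg2 and Gm16845 (2.16) next to Cnn1 were higher, Elof1 (−0.46) next to Cnn1, Nde1 (−0.75) next to Myh11 and Timm17a (−0.71) next to Lmod1 were lower, and Fopnl and Shisa4 were not called, though Shisa4 was called higher under the 3 other scalings.

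The 5 genes with the profile closest to that of Acta2, by the Euclidean distance of centred log2 CPM over the 6 libraries among 9999 other named genes with a mean of at least 5 CPM, were Cryab (distance 0.0897), Fbxo2 (0.119), Thbs2 (0.133), Gpx7 (0.142) and Itgb7 (0.143). Cryab, a small heat shock protein abundant in muscle, stood at 19.9 ± 1.07 CPM in WT and 109.2 ± 5.18 CPM in KO, and Thbs2, a matrix thrombospondin, at 292.2 ± 14.1 and 1588 ± 52.1 CPM (n = 3). Over 6 libraries in 2 groups the distance measures mainly how alike the differences between KO and WT are.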

How the data were processed

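RNA-seq counts of 6 libraries (3 WT, 3 KO) were used. Per the submitters' processing notes the authors aligned reads with STAR 2.7.10b to GRCm38; they deposited raw counts per Ensembl gene. For the counting program, annotation and strand setting, a statement was not given in the sources used here. CPM values use library totals; fold changes use TMM, so a small difference can differ in sign between them. Symbols, positions and exon lengths came from GENCODE M21 (28230 of 28293 identifiers matched). The test of KO against WT used edgeR 4.0.16 (R 4.3.3; TMM, filterByExpr, quasi-likelihood test, Benjamini-Hochberg over all tested genes), without a replicate block. Shares of a family were computed per kilobase of the union of exons and tested by exact two-sided permutation (scipy 1.17.1). Words of 50 bases were compared across all annotated transcripts. A simulation of KO against WT changed 200 of 14821 genes. There edgeR recovered 26.5% of 1.25-fold, 68.0% of 1.5-fold, 78.0% of 2-fold and 100% of 4-fold changes, and 6.25% of its calls were false. Far fewer genes were changed there than the 75.1% called between the KO and WT libraries. The simulated rates therefore cannot be carried over to the calls reported here. DESeq2 1.42.0 and limma 3.58.1 (voom) were alternatives; the others are named in the closing section. Genes were named by rule: the 10 genes, Tmpo, the 4 listed genes of at least 5 CPM with the smallest p in each list, paralogs of at least 5 CPM, neighbours, and the 5 genes nearest to Acta2; others are marked where they appear. The genes, lists and rule were chosen with earlier results of these data known. The result for 1 listed gene is not reported here beyond its place in the list counts.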

Additional observations from a re-analysis of the deposited data

How the results depend on the processing

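The 6 calls among the 7 tested genes kept direction and call with each library left out, with limma-voom and the DESeq2 Wald test, under scaling by library totals, upper quartiles or DESeq2 size factors, and when low counts were not filtered or 1 CPM was required in 3 libraries. Against a 2-fold change, 3 of the genes were called higher and 0 lower, beside 1790 higher and 1060 lower among all genes; in the test with no minimum fold, 5678 and 5652 were. Deviations of same-numbered WT and KO libraries from their group means correlated at r = 0.147, −0.115 and 0.159 for replicates 1 to 3. Differently numbered libraries gave −0.34 to 0.268. With 3 libraries per group these values cannot show whether a number marks a shared batch or culture, and the labels do not say. With the replicate as a block 5 genes were called higher and 1 lower, as without it, and 5832 and 5865 among all genes. With the longest transcript in place of the union of exons, levels per kilobase were 11.3 for Acta2, 1.00 for Cnn1, 105 for Cnn3, 0.0165 for Myh11, 0.954 for Mylk and 0.959 for Tagln in WT, and 168 for Cnn3, 4.31 for Mylk and 2.05 for Tagln in KO, with no change of order. The Myh11 share of heavy chains differed by −0.00324 to 0.00320 percentage points over the fits that leave out 1 library, so its sign depends on KO replicate 1. Allowing a G or C in the CArG core gave 3 windows in place of 2. Depth limits Actg2, Myh11 and Lmod1, which had at most 30 counts in a group.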
